A study of Rattus norvegicus with 20 samples.

Results

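Genes of mitochondrial and peroxisomal fatty acid oxidation were followed in liver RNA of 20 female Sprague Dawley rats on 4 diets. The set listed 32 genes by symbol, and 31 of them were measured, of 7837 genes measured in all. A gene counted as measured when a probe set named for it alone exceeded a log2 level of 4 on 5 or more of the 20 arrays. Where several probe sets of a gene passed, the one with the highest mean stood for it. Of the measured genes, 16 act in mitochondria (16 listed), 9 act in peroxisomes (10 listed), 3 are known from both organelles (Crat, Ech1 and Eci2) and 3 act in neither (Vnn1, Cyp4a1 and Fabp1). Acaa1a, the peroxisomal thiolase, had only a probe set shared with Acaa1b and was given no value.

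Liver mitochondria take up long-chain fatty acids as carnitine esters and shorten them by repeated rounds of oxidation, hydration, oxidation and thiolytic cleavage, which supply ketone body synthesis during fasting. Peroxisomes run a parallel pathway with their own enzymes on very long and branched chains, and pass shortened acyl groups on to the mitochondria. In rodent liver many genes of both pathways are known targets of the nuclear receptor PPARa.

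Each diet was eaten for 24 days by 5 rats and is represented by 5 liver arrays, taken here as 1 array per rat since no label names the rat. The BNF diet held 1650 mg per kg of 5,6-benzoflavone, which activates the aryl hydrocarbon receptor (AhR). The D3T diet held 600 mg per kg of 3H-1,2-dithiole-3-thione. The OLT diet held 500 mg per kg of oltipraz, a D3T that carries methyl and pyrazinyl substituents, so the doses of these related compounds differed. The control rats ate the same Harlan Teklad mash without an added compound. All rats were of one sex and strain; their age is not given in the labels. Values are log2 probe set summaries, differences are on the log2 scale, and a gene was called at an adjusted p under 0.05 in limma over all probe sets kept.

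Precision is limited by the number of arrays, and correlations between arrays ran from 0.93 to 0.992. The array labelled D3T 5 had a mean correlation of 0.979 with the OLT arrays and 0.968 with the other D3T arrays. The array labelled OLT 1 had a mean correlation of 0.966 with the D3T arrays and 0.963 with the other OLT arrays. Akr1b8, an aldo-keto reductase, read 5.77 on the array labelled D3T 5 and 13.61 on the array labelled OLT 1, whereas the other D3T arrays read 13.42 to 13.86 and the other OLT arrays 4.46 to 6.20. Results for D3T and OLT are therefore also given without these 2 arrays. Cyp1a1, the cytochrome P450 induced through AhR, read 13.50 to 13.77 in BNF livers and 3.99 to 6.59 in control livers. Hepatocyte markers, 13 of 14 measured, had a mean level of 14.68 to 15.12 over all 20 arrays.

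All 3 compounds were accompanied by lower levels of part of the set, and the genes called under BNF were in part not those called under the dithiolethiones. Under BNF 9 of 31 genes fell and 0 rose, where 4.17% of all genes were called (1.77% higher, 2.4% lower). Under D3T 15 fell and 1 rose, where 13.1% of all genes were called (5.6% higher, 7.45% lower). Under OLT 11 fell and 0 rose, where 7.5% of all genes were called (1.93% higher, 5.58% lower). The median difference over the 31 genes was -0.39 under BNF, -0.29 under D3T and -0.35 under OLT, and over all genes it was -0.06, -0.02 and -0.05 in the same order. With each array centred on its median, the median over the 31 genes was -0.33 under BNF, -0.14 under D3T and -0.18 under OLT. Over all genes it was then 0.01, 0.13 and 0.12 in the same order. At an unadjusted p under 0.05, 16 genes were lower under BNF and 0 higher, 17 were lower under D3T and 2 higher, and 18 were lower under OLT and 1 higher. Of all 7837 genes 935 were then lower and 464 higher under BNF, 1259 lower and 978 higher under D3T, and 1317 lower and 589 higher under OLT. Without the arrays labelled D3T 5 and OLT 1 the calls of all 3 comparisons were kept in full, 9, 16 and 11 genes in the same direction. Of all genes 5.16% (2.16% higher, 3% lower) were then called under BNF, 15% (6.56% higher, 8.42% lower) under D3T and 5.44% (1.56% higher, 3.88% lower) under OLT. The ranges of treated and control livers did not overlap for 12 genes under BNF, all lower, for 13 lower and 1 higher under D3T and for 14 lower under OLT, where 7.73%, 11.8% and 7.62% of all genes did not overlap. The BNF count was the least steady: it was 4 without control 1, control 2, BNF 1 or BNF 2 and 5 without control 3. The shares of all genes called were not counted in those fits.

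By pattern, 8 genes fell under D3T and OLT and were not called under BNF: Cpt1a, Acadl, Hadhb, Eci1, Decr1, Pex11a, Ech1 and Vnn1. Cpt2, Hadha and Cyp4a1 fell under all 3 compounds, and Hsd17b4 and Crat under BNF and D3T. Acadm, Acads, Hadh and Decr2 were called under BNF alone, Acadvl and Acot2 were called lower under D3T alone, and Cat was called higher under D3T alone. Other probe sets of Acot2 were also called under other diets, as given below. No call in any of the 3 comparisons was made for 11 genes: Acaa2, Etfa, Etfb, Etfdh, Crot, Acot8, Ehhadh, Abcd3, Pxmp4, Eci2 and Fabp1. The share of all genes that showed each of these patterns was not counted, so the patterns are a description of this set. The 3 comparisons with control share the same control rats, so calls made under several diets are not independent of each other. Whether a gene differed between 2 diets was tested separately, and those tests follow the account of the single genes. RNA of whole liver was measured, so fewer cells of a type and less RNA per cell cannot be told apart.

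**Figure D1:**
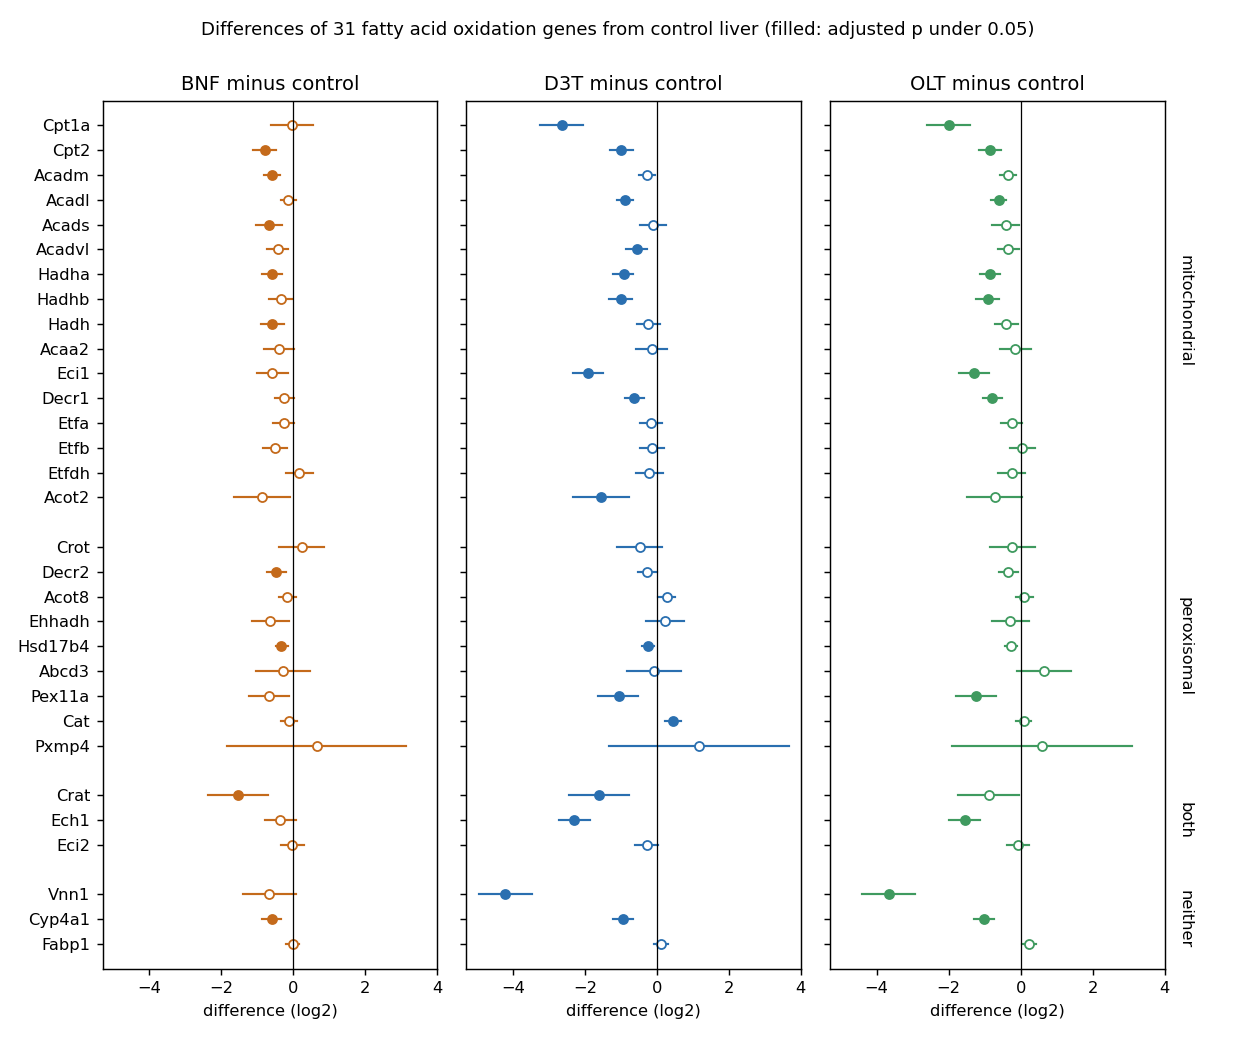
Differences from control (log2) of the 31 measured genes under BNF, D3T and OLT, in rows by organelle; points are limma estimates, bars their 95% intervals, and filled points have an adjusted p under 0.05. Filled points lie left of 0 for 9 genes under BNF, 15 under D3T and 11 under OLT, and right of 0 only for Cat under D3T.

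The carnitine shuttle held the largest decrease among the mitochondrial genes. Cpt1a, which makes acylcarnitines at the outer mitochondrial membrane and controls the rate of entry, read 8.95, 8.62, 9.11, 10.42 and 10.20 in D3T livers, 9.61, 10.36, 10.33, 10.19 and 10.06 in OLT livers, and 12.17, 12.16, 12.30, 12.02 and 11.92 in control livers. Every D3T and OLT liver was below every control liver, and the 4 lowest values were D3T livers 1, 2 and 3 and OLT liver 1. The difference was -2.65 (SE 0.28, adjusted p = 1.16e-05) under D3T and -2.0 (SE 0.28, adjusted p = 3.18e-04) under OLT, or -2.83 and -1.88 without the arrays labelled D3T 5 and OLT 1. BNF livers, at 11.57 to 12.45, overlapped the controls, with an interval of the difference from -0.62 to 0.55. Among all 7837 genes Cpt1a had the 20th lowest difference under D3T and the 18th lowest under OLT.

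Cpt2, which returns acylcarnitines to CoA esters at the inner membrane, fell under all 3 compounds. It read 9.54, 9.19, 9.80, 9.64 and 9.60 in BNF livers, 9.15, 9.19, 9.79, 9.66 and 9.04 in D3T livers, and 9.62, 9.19, 9.54, 9.65 and 9.51 in OLT livers, against 10.56, 10.31, 10.40, 10.32 and 10.18 in control livers. No treated liver reached the lowest control, and the 3 treated groups overlapped each other. The difference was -0.80 (SE 0.15, adjusted p = 0.00432) under BNF, -0.99 (SE 0.15, adjusted p = 2.78e-04) under D3T and -0.85 (SE 0.15, adjusted p = 0.00184) under OLT. Crat, a carnitine acyltransferase for short chains known from mitochondria and peroxisomes, read 4.78, 4.75, 5.39, 5.06 and 5.72 in BNF livers, 5.10, 3.91, 5.70, 4.82 and 5.88 in D3T livers, and 4.76, 5.58, 5.39, 7.47 and 5.80 in OLT livers, against 6.92, 6.80, 6.67, 6.47 and 6.56 in control livers. The BNF and D3T livers lay below all controls, while OLT liver 4 was above every control liver. Crat differed by -1.54 (SE 0.40, adjusted p = 0.0377) under BNF and -1.61 (SE 0.40, adjusted p = 0.0133) under D3T, both called, and by -0.89 (SE 0.40, adjusted p = 0.198) under OLT, not called. Treated values of Crat reached down to 3.91, near the minimum level of 4, so the sizes of its differences depend on the background level. The BNF call of Crat was lost when any 1 of control 1, control 2, control 3, control 4, control 5, BNF 1, BNF 2 and BNF 4 was left out (adjusted p up to 0.106), and with no filter (adjusted p = 0.082). Crot, which makes carnitine esters of medium-chain products in peroxisomes, was not called, with 8.84 to 10.27 in BNF, 8.74 to 9.13 in D3T, 8.30 to 9.87 in OLT and 9.03 to 9.98 in control livers.

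**Figure D2:**
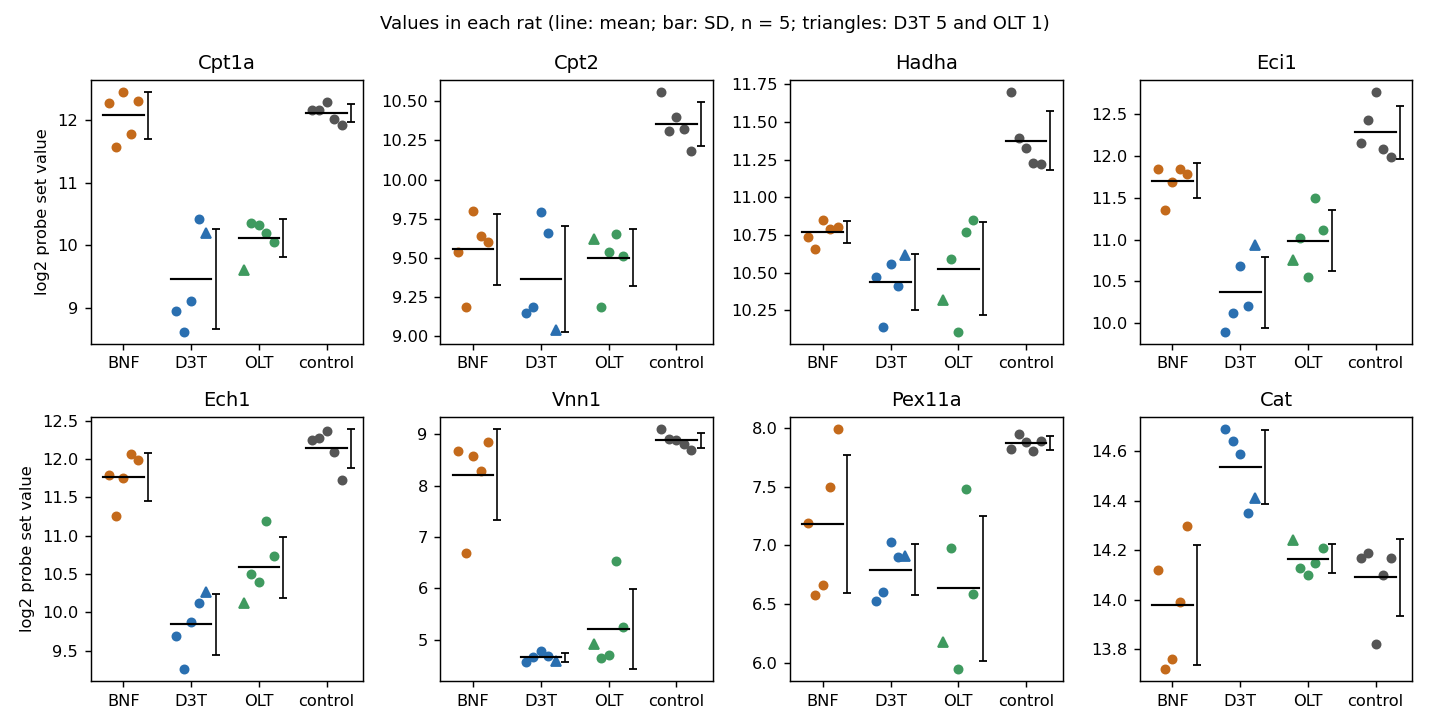
Log2 probe set values of 8 genes in each rat by diet (points; triangles mark the arrays labelled D3T 5 and OLT 1), with the group mean (line) and SD (bar, n = 5). Cpt1a, Eci1, Ech1 and Vnn1 are lower in D3T and OLT than in control livers without overlap, Cpt2 and Hadha are lower under all 3 compounds, Pex11a is lower under D3T and OLT, and Cat is higher under D3T.

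The acyl-CoA dehydrogenases, which make the first oxidation of each round and are specialised by chain length, were not all called under the same diets. Acadl, for long chains, read 12.16, 11.87, 12.24, 11.97 and 12.11 in D3T livers and 12.08, 12.37, 12.30, 12.40 and 12.62 in OLT livers, against 12.96, 12.84, 13.12, 13.02 and 12.90 in control livers. Both dithiolethione groups lay below all controls, and the difference was -0.90 (SE 0.10, adjusted p = 2.44e-05) under D3T and -0.61 (SE 0.10, adjusted p = 0.00139) under OLT. The BNF livers read 12.61 to 13.01, which overlapped the controls. Acadm, for medium chains, read 11.19, 10.94, 11.40, 11.44 and 11.47 in BNF livers, against 11.98, 11.79, 11.95, 11.80 and 11.84 in control livers. All BNF livers were below all controls, and the difference was -0.59 (SE 0.11, adjusted p = 0.00466). Acadm was -0.28 under D3T (adjusted p = 0.112) and -0.35 under OLT (adjusted p = 0.0644), neither called, although OLT livers did not overlap the controls. Acads, for short chains, read 7.50, 7.84, 7.96, 7.70 and 7.68 in BNF livers, against 9.02, 8.30, 8.45, 8.12 and 8.2 in control livers. BNF livers were again below all controls, with a difference of -0.68 (SE 0.18, adjusted p = 0.0365). This call was lost when any 1 of control 1, control 2, control 3, BNF 1, BNF 2, BNF 4 and BNF 5 was left out (adjusted p up to 0.11). It was also lost with arrays centred, quantile normalization, no filter, only the compared groups fitted or the replicate number as a block (adjusted p up to 0.0927). Acadvl, the membrane-bound enzyme for very long chains, read 9.34 to 10.10 in D3T livers and 10.06 to 10.39 in control livers, and differed by -0.57 (SE 0.14, adjusted p = 0.0135), but it was not called once each array was centred on its median (adjusted p = 0.0795). BNF livers, at 9.58 to 9.92, lay below all controls, but the difference of -0.44 was not called (adjusted p = 0.108). Under OLT Acadvl was -0.34 (adjusted p = 0.171), not called. D3T minus BNF was -0.14 (adjusted p = 0.572).

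The electron carriers that serve these dehydrogenases were not called against control. Etfa and Etfb, the subunits of the electron transfer flavoprotein, and Etfdh, its ubiquinone oxidoreductase, had differences from -0.51 (Etfb under BNF, adjusted p = 0.0966) to 0.16 (Etfdh under BNF). The 95% intervals under D3T were -0.47 to 0.13 for Etfa, -0.48 to 0.20 for Etfb and -0.58 to 0.17 for Etfdh. Etfb in BNF livers, at 11.29 to 11.78, lay below all controls, at 11.96 to 12.49, without reaching the threshold.

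Both subunits of the mitochondrial trifunctional protein, which carries out the last steps of each round on long chains, were lower under the dithiolethiones. Hadha, the alpha subunit, read 10.74, 10.66, 10.85, 10.79 and 10.80 in BNF livers, 10.47, 10.14, 10.56, 10.41 and 10.62 in D3T livers, and 10.32, 10.59, 10.11, 10.77 and 10.85 in OLT livers, against 11.70, 11.39, 11.33, 11.23 and 11.22 in control livers. All 15 treated livers were below all controls. Hadha differed from control by -0.60 (SE 0.13, adjusted p = 0.0135) under BNF, -0.93 (SE 0.13, adjusted p = 1.81e-04) under D3T and -0.84 (SE 0.13, adjusted p = 9.00e-04) under OLT. Hadhb, the beta subunit, read 10.27, 9.77, 10.43, 10.53 and 10.36 in D3T livers and 10.29, 10.14, 10.02, 10.73 and 10.64 in OLT livers, against 11.50, 11.30, 11.33, 11.19 and 11.07 in control livers. Its difference was -1.01 (SE 0.15, adjusted p = 3.15e-04) under D3T and -0.92 (SE 0.15, adjusted p = 0.00138) under OLT, and -0.35 (SE 0.15, adjusted p = 0.265) under BNF, where its values of 10.68 to 11.16 overlapped the controls.

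The 2 subunit genes start 301 bases apart and run in opposite directions, so their promoter windows (250 bases before to 50 bases after the gene start) share 200 bases. The Hadha window from RefSeq, build GRCr8 (chr6:31907551-31907850, forward strand), is shown because members of the pair fell together under D3T and OLT. Capitals mark the bases it shares with the Hadhb window.
Hadha: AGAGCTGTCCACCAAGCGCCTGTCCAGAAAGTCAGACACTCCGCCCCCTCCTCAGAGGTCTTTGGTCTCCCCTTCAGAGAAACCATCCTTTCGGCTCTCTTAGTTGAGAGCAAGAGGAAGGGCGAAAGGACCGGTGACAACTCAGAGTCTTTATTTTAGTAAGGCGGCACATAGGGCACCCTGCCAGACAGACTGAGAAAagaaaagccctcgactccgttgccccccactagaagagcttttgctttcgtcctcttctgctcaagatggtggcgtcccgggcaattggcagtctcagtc

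The hexamer AGGTCA, a core recognised by many nuclear receptors, was searched on both strands of such windows. It was absent from the Hadha window and present once in the Hadhb window.

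Hadh, the hydroxyacyl-CoA dehydrogenase for shorter chains, read 11.25, 11.11, 11.16, 11.69 and 11.63 in BNF livers, against 12.22, 11.91, 11.87, 11.86 and 11.95 in control livers. BNF livers were below all controls, and the difference was -0.59 (SE 0.15, adjusted p = 0.0371). The call was lost when any 1 of control 1, control 2, control 4, control 5, BNF 1, BNF 2 and BNF 3 was left out (adjusted p up to 0.108), and with no filter (adjusted p = 0.0808). Under D3T and OLT Hadh was -0.25 and -0.40, not called. Acaa2, the mitochondrial thiolase, was not called on the probe set that stood for it, with 11.63 to 12.47 in BNF, 11.98 to 12.87 in D3T, 12.02 to 13 in OLT and 12.15 to 12.98 in control livers.

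The auxiliary enzymes that prepare unsaturated fatty acids for oxidation held some of the largest decreases under D3T. Eci1, the mitochondrial enoyl-CoA delta isomerase, read 9.90, 10.12, 10.68, 10.21 and 10.93 in D3T livers and 10.76, 11.02, 10.55, 11.50 and 11.11 in OLT livers, against 12.16, 12.43, 12.77, 12.08 and 11.99 in control livers. Neither dithiolethione group overlapped the controls, and D3T livers 1, 2 and 4 were below every OLT liver. The difference was -1.92 (SE 0.20, adjusted p = 1.16e-05) under D3T and -1.30 (SE 0.20, adjusted p = 8.22e-04) under OLT, or -2.06 and -1.24 without the arrays labelled D3T 5 and OLT 1. The BNF livers, at 11.35 to 11.85, also lay below the controls, but the difference of -0.58 was not called (adjusted p = 0.132).

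Ech1, the dienoyl-CoA isomerase found in mitochondria and peroxisomes, read 9.69, 9.26, 9.87, 10.12 and 10.26 in D3T livers and 10.12, 10.50, 10.39, 11.19 and 10.73 in OLT livers, against 12.25, 12.27, 12.36, 12.09 and 11.72 in control livers. The controls stood above every D3T and OLT liver. Ech1 differed by -2.30 (SE 0.21, adjusted p = 2.35e-06) under D3T and -1.55 (SE 0.21, adjusted p = 2.58e-04) under OLT, and by -0.37 under BNF (adjusted p = 0.429). Decr1, the mitochondrial dienoyl-CoA reductase, read 12.28, 11.92, 12.19, 12.09 and 11.84 in D3T livers and 11.75, 11.68, 11.76, 12.25 and 12.13 in OLT livers, against 12.81, 12.83, 12.70, 12.70 and 12.48 in control livers. Neither group overlapped the controls, and its differences were -0.64 (SE 0.13, adjusted p = 0.00284) under D3T and -0.79 (SE 0.13, adjusted p = 9.71e-04) under OLT.

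Decr2, the peroxisomal dienoyl-CoA reductase, read 9.77, 9.66, 10.09, 9.80 and 9.91 in BNF livers, against 10.18, 10.40, 10.51, 10.20 and 10.29 in control livers. The BNF livers lay below the controls, and the difference was -0.47 (SE 0.13, adjusted p = 0.0481). This call was lost when any 1 of control 1, control 2, control 3, control 4, control 5, BNF 1, BNF 2, BNF 4 and BNF 5 was left out (adjusted p up to 0.13). It was also lost with arrays centred, quantile normalization, no filter, no intensity trend or the replicate number as a block (adjusted p up to 0.203). Under D3T and OLT Decr2 was -0.28 and -0.34, not called. Eci2, an enoyl-CoA isomerase of both organelles, was not called, and its differences from control lay between -0.29 under D3T and -0.03 under BNF.

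The Eci1 window (chr10:13961000-13961299, forward strand, RefSeq, GRCr8) is shown as that of the gene with the lowest difference under D3T among the mitochondrial genes whose window held the hexamer, here on the opposite strand of the gene. Capitals mark it.
Eci1: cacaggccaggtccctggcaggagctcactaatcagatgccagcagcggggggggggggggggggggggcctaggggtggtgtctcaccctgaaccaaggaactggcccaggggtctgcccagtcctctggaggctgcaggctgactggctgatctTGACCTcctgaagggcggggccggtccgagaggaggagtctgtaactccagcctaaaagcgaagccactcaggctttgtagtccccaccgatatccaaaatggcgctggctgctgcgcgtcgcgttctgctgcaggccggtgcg

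Of the 9 peroxisomal genes 4 had positive and 5 negative differences under D3T, and 3 of them were called. Cat, catalase, which breaks down the hydrogen peroxide made by the first peroxisomal oxidation step, read 14.69, 14.64, 14.59, 14.35 and 14.41 in D3T livers, against 14.17, 14.19, 13.82, 14.10 and 14.17 in control livers. Every D3T liver was above every control liver, and the difference was 0.44 (SE 0.10, adjusted p = 0.00831), or 0.47 without the arrays labelled D3T 5 and OLT 1. Under BNF and OLT Cat was -0.11 and 0.08, with intervals of -0.33 to 0.10 and -0.14 to 0.29. Pex11a, which promotes peroxisome division, read 6.53, 6.60, 7.03, 6.90 and 6.91 in D3T livers and 6.18, 6.98, 5.95, 7.48 and 6.59 in OLT livers, against 7.82, 7.95, 7.88, 7.80 and 7.89 in control livers. The controls were tightly grouped above all D3T and OLT livers. Its difference was -1.07 (SE 0.27, adjusted p = 0.0127) under D3T and -1.23 (SE 0.27, adjusted p = 0.00883) under OLT. BNF livers ranged from 6.58 to 7.99, and the difference of -0.68 was not called.

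The Cat window (chr3:110329477-110329776, reverse strand, RefSeq, GRCr8) is shown as that of the 1 gene of the set called higher against control. Its hexamer, in capitals, is on the strand of the gene.
Cat: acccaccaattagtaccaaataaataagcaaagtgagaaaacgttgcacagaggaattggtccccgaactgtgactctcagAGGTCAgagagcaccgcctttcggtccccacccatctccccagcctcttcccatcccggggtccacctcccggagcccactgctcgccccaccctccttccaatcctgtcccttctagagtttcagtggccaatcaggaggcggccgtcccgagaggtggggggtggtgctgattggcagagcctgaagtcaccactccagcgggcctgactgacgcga

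Across the set, 25 of 31 measured genes had a RefSeq window, and 8 of the 25 (32%) held at least 1 AGGTCA hexamer, as did 5415 of 33469 windows of all genes (16.2%). The genes with one were Acadvl, Hadhb, Eci1, Acot8, Hsd17b4, Cat, Eci2 and Fabp1. The hexamer was present for 4 of 10 genes that fell under D3T (40%) and for 4 of the 15 others (26.7%). The DR1 element, which is AGGTCA, any 1 base N and AGGTCA again, was in 0 of the 25 windows and in 18 of 33469 (0.0538%); the hexamer search also counts its parts.

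Hsd17b4, the peroxisomal enzyme with hydratase and dehydrogenase activity for branched and very long chains, read 11.93, 12.00, 12.09, 12.13 and 12.20 in BNF livers, 12.12, 12.06, 12.27, 12.01 and 12.25 in D3T livers, and 12.16, 12.11, 12.02, 12.21 and 12.17 in OLT livers, against 12.50, 12.40, 12.56, 12.27 and 12.25 in control livers. BNF and OLT livers lay below the controls and D3T livers overlapped them. Its differences were small, at -0.33 (SE 0.08, adjusted p = 0.0252) under BNF, -0.26 (SE 0.08, adjusted p = 0.0424) under D3T and -0.26 (SE 0.08, adjusted p = 0.0534) under OLT. The BNF call was lost when any 1 of control 1, control 2, control 3, BNF 1 and BNF 2 was left out (adjusted p up to 0.0877), and the D3T call when any 1 of control 1, control 2, control 3, D3T 1, D3T 2 and D3T 4 was (adjusted p up to 0.0995). The BNF call was also lost with arrays centred or only the compared groups fitted (adjusted p up to 0.27), and the D3T call with arrays centred, no filter, no intensity trend, array weights, only the compared groups fitted or the replicate number as a block (adjusted p up to 0.546). Ehhadh, the hydratase and dehydrogenase of straight chains, was not called against control, with 10.49 to 12.19 in BNF, 12.02 to 12.77 in D3T, 11.46 to 12.19 in OLT and 11.69 to 12.48 in control livers. Abcd3, a transporter in the peroxisomal membrane, ranged from 11.37 to 13.62 in BNF, 11.92 to 12.79 in D3T, 12.55 to 13.93 in OLT and 11.94 to 13.47 in control livers and was not called. Its highest value within a group was on the array with the lowest median in BNF and control and on the array with the 2nd lowest in D3T and OLT, and the part of array level in its spread was not tested. Acot8, a peroxisomal thioesterase, was not called against control, with differences of -0.17, 0.27 and 0.10 under BNF, D3T and OLT.

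Pxmp4, a peroxisomal membrane protein of little known function, stood at 2 separate levels that did not follow the diets. On the probe set that stood for it, 4 livers (BNF 4, OLT 5, control 1 and control 2) read 4.84 to 6.50 and the other 16 read 9.22 to 11. The other probe set gave the same 4 livers the lowest values, 5.2 to 5.75, against 6.78 to 8.81. The interval of the difference under D3T ran from -1.33 to 3.66, and class values are given below also without Pxmp4.

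**Figure D3:**
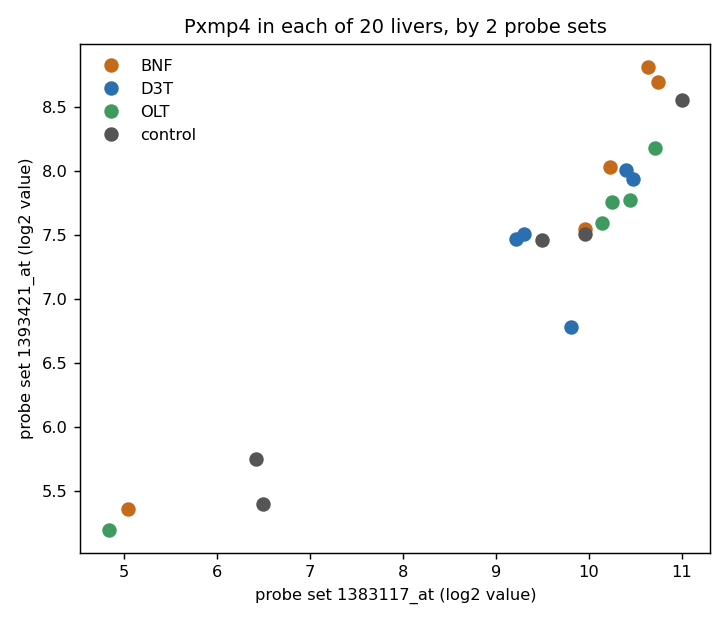
Pxmp4 in each of 20 livers, as log2 values of its 2 probe sets (x and y axes), coloured by diet. A group of 4 livers, 1 BNF, 1 OLT and 2 control, lies at 4.84 to 6.50 and 5.2 to 5.75, apart from the other 16.

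Of the genes that act in neither organelle, Vnn1 had the lowest difference of the whole set. Vnn1, a membrane-bound pantetheinase that releases cysteamine, read 4.57, 4.66, 4.79, 4.69 and 4.58 in D3T livers and 4.91, 4.65, 4.71, 6.54 and 5.25 in OLT livers, against 9.10, 8.90, 8.89, 8.80 and 8.70 in control livers. All D3T and OLT livers were well below the controls, most of them close to the minimum level of 4, and OLT liver 4 was the highest of them. The difference was -4.22 (SE 0.35, adjusted p = 1.23e-06) under D3T and -3.66 (SE 0.35, adjusted p = 8.61e-06) under OLT, the 7th and 4th lowest of 7837 genes; a size that ends near background depends on the background level. It read 8.68, 6.68, 8.58, 8.28 and 8.84 in BNF livers and was not called there (-0.67, adjusted p = 0.382). Cyp4a1, which hydroxylates the omega end of fatty acids in the endoplasmic reticulum, read 11.95, 11.60, 12.09, 11.78 and 11.98 in BNF livers, 11.27, 11.45, 11.72, 11.54 and 11.70 in D3T livers, and 11.64, 11.22, 11.43, 11.65 and 11.32 in OLT livers, against 12.41, 12.88, 12.53, 12.20 and 12.37 in control livers. Every treated liver was below every control. Cyp4a1 differed by -0.60 (SE 0.13, adjusted p = 0.0125) under BNF, -0.94 (SE 0.13, adjusted p = 1.31e-04) under D3T and -1.03 (SE 0.13, adjusted p = 1.74e-04) under OLT, and the BNF call was lost when arrays were centred on their medians (adjusted p = 0.0826). Fabp1, the liver fatty acid binding protein, read 15.18 to 15.71 in control livers and was not called under any compound.

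Thioesterases release free acids from CoA esters. Acot2, the mitochondrial one, read 9.81, 9.11, 9.30, 7.63 and 9.68 in D3T livers, against 10.03, 10.94, 11.40, 10.61 and 10.32 in control livers. All D3T livers were below all controls, with D3T liver 4 the lowest, and the difference was -1.56 (SE 0.37, adjusted p = 0.00987). Under BNF and OLT it was -0.88 (adjusted p = 0.233) and -0.72 (adjusted p = 0.257).

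Where a gene had several kept probe sets they did not always give the same call. For Acaa2, probe set 1380504_at, of lower level than the one that stood for the gene, read 5.04, 5.28, 5.85, 6.56 and 6.24 in D3T livers and 5.95, 6.81, 5.76, 6.58 and 6.44 in OLT livers, against 8.36, 8.31, 7.13, 7.84 and 8.17 in control livers. Neither group overlapped the controls, and the difference was -2.17 (SE 0.36, adjusted p = 6.52e-04) under D3T and -1.65 (SE 0.36, adjusted p = 0.00915) under OLT, while 1386880_at had -0.15 and -0.15, not called. Acot2 had 3 probe sets, all lower under D3T, at -1.56, -3.02 and -1.84. Probe set 1388210_at read down to 3.71 in D3T livers, near the minimum level of 4, so its difference of -3.02 depends on the background level. Probe set 1391433_at of Acot2 was also called under BNF, at -1.48 (SE 0.33, adjusted p = 0.0159), and under OLT, at -1.65 (SE 0.33, adjusted p = 0.00605), and 1388210_at under OLT, at -1.35 (SE 0.39, adjusted p = 0.0461). Both probe sets of Cpt1a were lower under D3T and OLT, and the one of lower level had differences of -2.92 and -2.60.

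**Figure D4:**
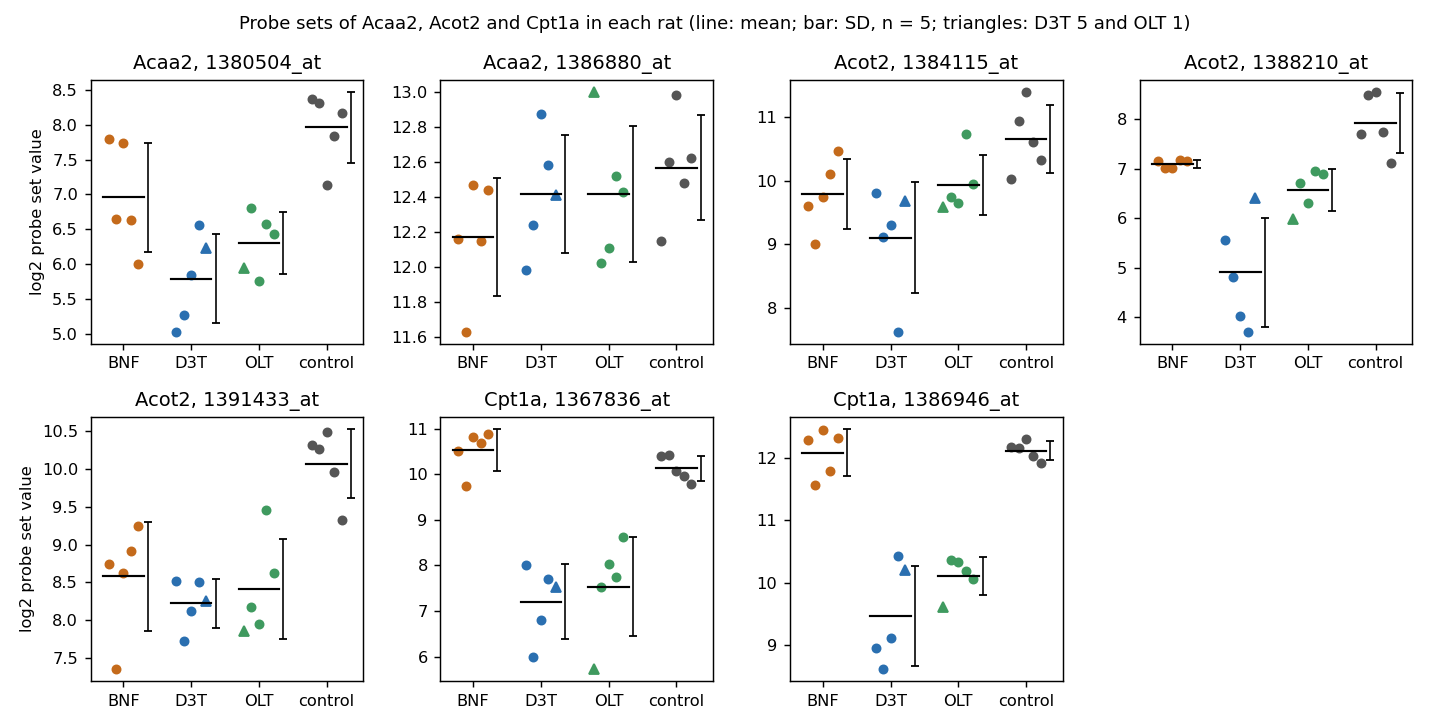
Log2 values of the separate kept probe sets of Acaa2, Acot2 and Cpt1a in each rat by diet (points; triangles mark the arrays labelled D3T 5 and OLT 1), with the mean (line) and SD (bar, n = 5). Probe set 1380504_at of Acaa2 is lower in D3T and OLT than in control livers without overlap, whereas 1386880_at overlaps in every diet.

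Set against each other, the 16 mitochondrial genes of the set were lower than its 9 peroxisomal genes under both dithiolethiones, and the classes lay closer under BNF. In the further lists given below the order was reversed under the dithiolethiones. There the list of 19 mitochondrial oxidation and ketone genes had medians of 0.18 under D3T and -0.04 under OLT. The list of 23 peroxisomal metabolism genes had -0.16 and -0.21. Under BNF the medians of the lists were -0.15 and -0.11. Both lists reach beyond fatty acid oxidation, with Acad8 of valine breakdown in the former and Dao, D-amino acid oxidase, in the latter. Under D3T 9 of 16 mitochondrial genes fell and 0 rose, with a median difference of -0.61. Among peroxisomal genes 2 fell and 1 rose under D3T, with a median of -0.08, which became 0.06 when arrays were centred on their medians. The median over all genes under D3T went from -0.02 to 0.13 with the same centring. Under OLT 7 of 16 mitochondrial genes fell (median -0.52) and 1 of 9 peroxisomal genes (median -0.23). Under BNF 5 of 16 mitochondrial genes fell (median -0.47) and 2 of 9 peroxisomal genes (median -0.30; neither was called with arrays centred). No gene of either class rose under OLT or BNF. The peroxisomal medians rested on single arrays: under D3T the median was -0.23 without control 1, 0.11 without control 3 and 0.06 without D3T 1, and under OLT it was -0.01 without OLT 1 and -0.09 without control 1 or OLT 3.

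Per liver, the mean deviation of the 16 mitochondrial genes from their control means was -0.72 to -0.25 in BNF, -0.99 to -0.59 in D3T and -0.90 to -0.42 in OLT livers, against -0.11 to 0.16 in control livers. All treated livers were therefore below all controls on this measure. For the peroxisomal genes without Pxmp4 the same mean was -0.48 to 0.01 in BNF, -0.26 to 0.01 in D3T and -0.43 to -0.08 in OLT livers, against -0.10 to 0.08 in control livers, and each treated group overlapped the controls. The mitochondrial mean minus the peroxisomal mean was -0.28 to 0.14 in BNF, -0.76 to -0.55 in D3T and -0.54 to -0.32 in OLT livers, against -0.08 to 0.09 in control livers. In D3T and OLT livers this gap lay below that of every control and BNF liver; in BNF livers it overlapped the controls. The arrays labelled D3T 5 and OLT 1 had gaps of -0.55 and -0.54. With Pxmp4 kept, the gap was -0.48 to 0.29 in BNF, -0.91 to -0.65 in D3T and -0.79 to 0.08 in OLT livers, against -0.28 to 0.28 in control livers. These gaps are descriptions of genes chosen with earlier results known, and no test was made of them.

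**Figure D5:**
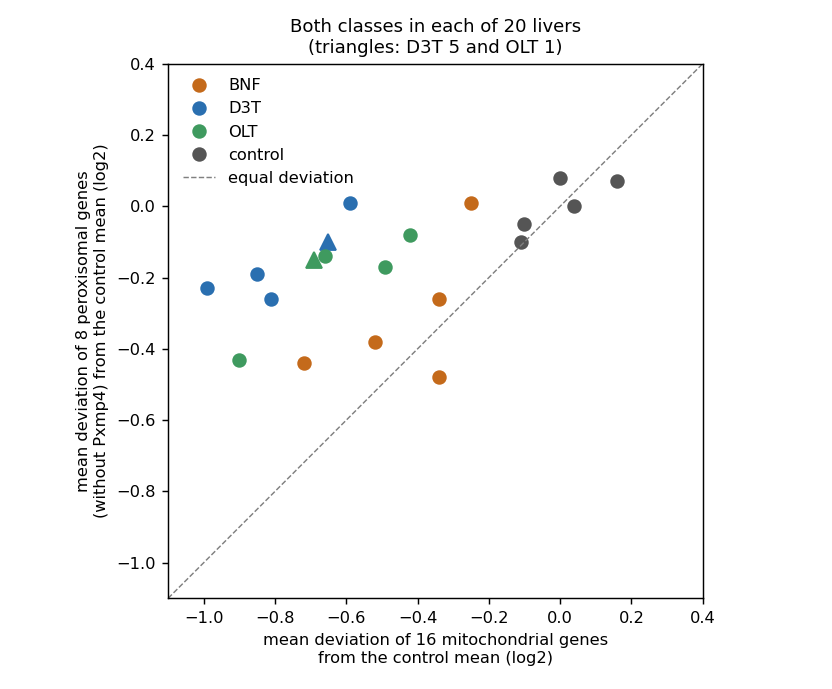
Mean deviation from the control mean (log2) of the 16 mitochondrial genes (x axis) and of 8 peroxisomal genes without Pxmp4 (y axis) in each of 20 livers, coloured by diet; the dashed line marks equal deviation and triangles the arrays labelled D3T 5 and OLT 1. D3T and OLT livers lie left of the line by 0.32 to 0.76, and control livers stay within 0.09 of it.

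Differences between diets were tested in the same fit. For D3T minus BNF 4 of 31 genes were higher and 7 lower, where 17.6% of all genes were called (10.8% higher, 6.78% lower). The ranges did not overlap for 8 genes, where 15% of all genes did not overlap. Cpt1a (-2.62), Acadl (-0.76), Hadhb (-0.66), Eci1 (-1.34), Decr1 (-0.39), Ech1 (-1.93) and Vnn1 (-3.55) were lower under D3T than under BNF, with adjusted p between 2.32e-06 and 0.0431. The peroxisomal genes Cat, Ehhadh and Acot8, and Acads, were higher: Cat by 0.56 (adjusted p = 0.0011), Ehhadh by 0.86 (adjusted p = 0.0236), Acot8 by 0.44 (adjusted p = 0.0122) and Acads by 0.57 (adjusted p = 0.0341). Without the arrays labelled D3T 5 and OLT 1 the calls of Acads and Decr1 were lost and the other 9 were kept, where 17.7% of all genes were called (10.3% higher, 7.41% lower). The call of Acads was also lost without any 1 of BNF 1, BNF 4, BNF 5, D3T 2, D3T 3 and D3T 5, that of Decr1 without any 1 of BNF 1, BNF 3, BNF 4, BNF 5, D3T 2, D3T 3, D3T 4 and D3T 5, and that of Ehhadh without any 1 of BNF 1, BNF 2, D3T 1 and D3T 3 (adjusted p up to 0.11, 0.111 and 0.0547). All 3 calls were lost with no filter too, those of Decr1 and Ehhadh with only the compared groups fitted, and that of Decr1 with arrays centred or no intensity trend (adjusted p up to 0.0984). Acadm and Hadh, called under BNF and not under D3T, did not reach the threshold between those diets, at 0.31 (SE 0.11, adjusted p = 0.0645) and 0.34 (SE 0.15, adjusted p = 0.149).

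For OLT minus BNF 1 gene was higher and 8 lower, where 11.7% of all genes were called (5.28% higher, 6.41% lower). The ranges did not overlap for 5 genes, where 9.91% of all genes did not overlap. Cpt1a (-1.97), Acadl (-0.48), Hadhb (-0.57), Eci1 (-0.72), Decr1 (-0.54), Ech1 (-1.18), Vnn1 (-3.00) and Cyp4a1 (-0.43) were lower under OLT than under BNF, and Etfb was higher (0.56). The count was 5 without BNF 4 and 5 without OLT 2, where the shares of all genes called were not counted. Single arrays whose omission ended a call were BNF 3, BNF 4, OLT 1, OLT 2 and OLT 3 for Hadhb, BNF 1, BNF 3, BNF 4, BNF 5, OLT 1, OLT 2 and OLT 3 for Eci1, BNF 1, BNF 2, BNF 4, OLT 1, OLT 2 and OLT 4 for Etfb and BNF 1, BNF 3, BNF 4, BNF 5, OLT 2, OLT 3 and OLT 5 for Cyp4a1 (adjusted p up to 0.0657, 0.0773, 0.102 and 0.118). All 4 calls were also lost with no filter, and that of Cyp4a1 with arrays centred, no intensity trend, only the compared groups fitted or the replicate number as a block (adjusted p up to 0.207); those of Eci1 with arrays centred and of Hadhb with only the compared groups fitted were lost as well. Without the arrays labelled D3T 5 and OLT 1, Hadhb, Eci1 and Etfb were no longer called and Fabp1 was called higher, so that 6 of the 9 calls were kept, where 9.75% of all genes were called (4.71% higher, 5.04% lower). The D3T and OLT comparisons with BNF share the BNF rats.

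D3T and OLT, fed at 600 and 500 mg per kg of diet, gave no called gene between them. For OLT minus D3T limma called 0 of 31 genes and 0% of all genes; at an unadjusted p under 0.05 there were 6 of the 31 (Acadl, Acot2, Cpt1a, Ech1 and Eci1 higher, Cat lower) and 922 of all 7837. The ranges of Cat did not overlap, at 14.10 to 14.24 in OLT livers and 14.35 to 14.69 in D3T livers, and those of the other 30 genes did, where 1.16% of all genes did not overlap. Without the arrays labelled D3T 5 and OLT 1, 4.84% of all genes were called (1.95% higher, 2.88% lower), 2 of the 31 among them. Ech1 was then 0.97 higher under OLT (adjusted p = 0.0139) and Eci1 0.82 higher (adjusted p = 0.0324), while with all arrays the differences were 0.75 (SE 0.21, adjusted p = 0.206) and 0.62 (SE 0.20, adjusted p = 0.272). Leaving out D3T 5 alone gave 1 called gene of the 31, and the share of all genes was not counted there. With a difference of at least 2-fold asked as well, 1 of the 31 genes was called under BNF, 8 under D3T and 6 under OLT, 4 for D3T minus BNF, 3 for OLT minus BNF and 0 for OLT minus D3T, where 1.57%, 4.27%, 2.71%, 5.65%, 4.41% and 0% of all genes were. With all arrays, the 95% interval of OLT minus D3T was 0.06 to 1.23 for Cpt1a, -0.17 to 0.45 for Cpt2, -0.19 to 0.37 for Hadha and -0.18 to 1.29 for Vnn1. Over the set, the array labelled D3T 5 was nearer to the mean of the other OLT arrays for 16 of 31 genes, and the array labelled OLT 1 nearer to the mean of the other D3T arrays for 19 of 31.

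Other genes of the same pathways were counted from further lists. For each list, the shares of all genes called were 4.17% under BNF (1.77% higher, 2.4% lower), 13.1% under D3T (5.6% higher, 7.45% lower) and 7.5% under OLT (1.93% higher, 5.58% lower). With arrays centred the median over all genes was 0.01, 0.13 and 0.12 in the same order, and the shares called were not counted. Of 19 further mitochondrial oxidation and ketone genes, 0 rose and 1 fell under BNF, 2 rose and 4 fell under D3T, and 0 rose and 3 fell under OLT, with medians of -0.15, 0.18 and -0.04; the OLT median was 0.13 with arrays centred, and under D3T 5 then rose and 3 fell. Leaving out D3T 5 and OLT 1 gave 4 risen and 4 fallen genes under D3T and 1 fallen under OLT. Slc22a5, the carnitine transporter of the cell membrane, differed by -2.22 (SE 0.45, adjusted p = 0.00358) under D3T and -1.60 (SE 0.45, adjusted p = 0.0415) under OLT. Slc25a42, a mitochondrial CoA carrier, fell by 1.03 under D3T, and Acad11, a long-chain acyl-CoA dehydrogenase, by 0.76 under D3T and by 0.80 under OLT. Without the arrays labelled D3T 5 and OLT 1 neither Slc22a5 (adjusted p = 0.072) nor Acad11 (adjusted p = 0.0624) was called under OLT. Acad8, an acyl-CoA dehydrogenase of valine breakdown, rose by 1.06 under D3T, and Echs1, the short-chain enoyl-CoA hydratase, by 0.70; Echs1 and Idh1 were named after their values were seen. Acsm3, a medium-chain acyl-CoA synthetase, fell under all 3 compounds to means of 3.92 to 4.02, at background, against 4.58 in control livers. Slc25a20, the carnitine-acylcarnitine carrier, was not called, at -0.11, -0.35 and -0.39 under BNF, D3T and OLT.

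Of 23 further peroxisomal metabolism genes, 5 fell under BNF, 2 rose and 6 fell under D3T, and 1 rose and 4 fell under OLT, with medians of -0.11, -0.16 and -0.21. With arrays centred the medians were -0.05, -0.01 and -0.04, 3 fell under BNF, 4 rose and 5 fell under D3T, and 1 rose and 3 fell under OLT. Phyh, which starts the oxidation of phytanic acid, averaged 12.77 ± 0.18 in D3T livers and 14.69 ± 0.13 in control livers (SD, n = 5 each). Its difference was -1.93 (SE 0.14, adjusted p = 2.08e-07) under D3T and -1.38 (SE 0.14, adjusted p = 1.68e-05) under OLT. Acot4, a peroxisomal thioesterase, fell under all 3 compounds, with differences of -1.51, -1.74 and -1.43 under BNF, D3T and OLT. Dao, D-amino acid oxidase, differed in opposite directions, at -2.77 (SE 0.57, adjusted p = 0.00959) under BNF and 1.91 (SE 0.57, adjusted p = 0.0367) under D3T, and the test between those diets gave 4.68 (SE 0.57, adjusted p = 2.08e-05) for D3T minus BNF. Dao averaged 4.33 (SD 1.45) in BNF livers, near the minimum level of 4, so the differences involving BNF depend on the background level. Hacl1, a lyase of branched-chain alpha-oxidation, fell by 1.09 under BNF and by 1.02 under D3T, and Nudt7, a CoA diphosphatase, by 1.02 under D3T and by 0.89 under OLT, where it was not called without the 2 arrays (adjusted p = 0.097). Lonp2, a peroxisomal protease, fell by 0.45 under BNF, and Slc27a2, a very long-chain acyl-CoA synthetase, fell by 0.40 under D3T and by 0.42 under OLT. Idh1, an isocitrate dehydrogenase of cytosol and peroxisomes, rose by 0.44 under D3T and by 0.33 under OLT, where it was not called without the 2 arrays (adjusted p = 0.0554). Mlycd, malonyl-CoA decarboxylase, was not called. Of 15 peroxisome biogenesis genes limma called 0 in each comparison with control, and 2, 3 and 4 had an unadjusted p under 0.05 under BNF, D3T and OLT. Of all 7837 genes 1399, 2237 and 1906 had such a p in the same order. With arrays centred 1 biogenesis gene fell under BNF and 1 rose under D3T, and the medians of -0.03, -0.07 and -0.05 became 0.04, 0.07 and 0.11.

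Of 18 further PPARa target genes, 2 fell under BNF, 3 rose and 4 fell under D3T, and 3 fell under OLT, with medians of -0.38, -0.30 and -0.24. When D3T 5 and OLT 1 were left out, 1 rose and 3 fell under BNF and 3 rose and 7 fell under D3T. With arrays centred 1 fell under OLT, and the medians were -0.31, -0.16 and -0.07. Scd, stearoyl-CoA desaturase, rose by 2.30 under D3T, Angptl4, a secreted inhibitor of lipoprotein lipase, by 2.09, and Pdk4, which inhibits pyruvate dehydrogenase, by 1.26 (adjusted p = 0.0196). G0s2, an inhibitor of adipose triglyceride lipase, fell by 1.78 under D3T and by 1.09 under OLT. Cidec, a lipid droplet protein, and Aldh3a2, a fatty aldehyde dehydrogenase, were called under both dithiolethiones, with -1.12 and -0.81 under D3T and -0.81 and -0.55 under OLT. Mgll, monoglyceride lipase, and Plin2, a lipid droplet coat protein, had differences of -1.44 and -0.94 under BNF, both called, and Plin2 also fell by 0.71 under D3T. Among 20 regulators of fatty acid oxidation 3 fell under BNF, 1 rose and 1 fell under D3T and 2 fell under OLT, where 4.17%, 13.1% and 7.5% of all genes were called. The medians were -0.18, -0.18 and -0.14. With arrays centred 2 regulators fell under BNF, 3 rose and 1 fell under D3T and 1 fell under OLT, with medians of -0.12, -0.03 and 0.02. Esrra, an orphan nuclear receptor of mitochondrial genes, fell by 0.83 under BNF, by 1.02 under D3T and by 0.57 under OLT. Acaca, acetyl-CoA carboxylase, whose product malonyl-CoA inhibits Cpt1a, differed by -1.13 (SE 0.24, adjusted p = 0.0101) under BNF and 1.31 (SE 0.24, adjusted p = 0.00145) under D3T, and D3T minus BNF was 2.44 (SE 0.24, adjusted p = 1.71e-06). Prkab1, a subunit of AMP-activated kinase, fell by 0.49 under BNF and by 0.65 under OLT. Ppargc1a, a coactivator of these genes, read near background and was not called. Of 15 TCA cycle genes 1 fell under each compound, Mdh2 under BNF and Suclg1 under D3T and OLT, where Suclg1 was not called without the 2 arrays (adjusted p = 0.0721 and 0.0653); with arrays centred 3 TCA cycle genes rose under D3T and 0 fell.

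Among markers of other liver cells, most calls against control were made under BNF. Of 8 measured stellate cell and fibroblast markers (12 listed), 4 rose under BNF: Col1a1 by 2.45, Dcn by 1.99, Col3a1 by 0.95 and Col1a2 by 0.85. Their mean level was 7.29 to 8.06 in BNF livers, 6.41 to 6.84 in D3T livers and 6.34 to 6.95 in OLT livers, against 6.32 to 7.21 in control livers. Of 11 measured macrophage markers (13 listed) 2 rose under BNF, Laptm5 and Tyrobp, while all 11 had a difference above 0, with a median of 0.97. With arrays centred 7 of the 11 rose, as did 7 with quantile normalization, and 3 did when D3T 5 and OLT 1 were left out. Their mean level was 7.79 to 9.02 in BNF and 7.10 to 7.75 in control livers. Cd74 of the lymphocyte list, Aqp1 of the cholangiocyte list and Apoa1 of the hepatocyte list also rose under BNF, and Cpa1 of the pancreas list fell. Lum, Des, Rgs5 and Tagln of the stellate list and Marco and Vsig4 of the macrophage list had no kept probe set. The part of these cell types in the differences of the oxidation genes was not tested. Under D3T Acta2 fell by 0.88. Cd163 fell by 1.46 under OLT, but was not called without the 2 arrays (adjusted p = 0.0766). No other marker of the 8 lists was called under either diet. All 11 macrophage markers had a difference below 0 under OLT, with a median of -0.52, or -0.35 with arrays centred. Under D3T 10 of the 11 were below 0, with a median of -0.11, and 4 with arrays centred (median 0.04). Over all genes the median was -0.02 under D3T and -0.05 under OLT, or 0.13 and 0.12 with arrays centred. The mean macrophage level was 6.57 to 7.79 in D3T and 6.23 to 7.83 in OLT livers.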

How the data were processed

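Liver RNA of 20 rats was measured on 1-colour Affymetrix arrays. The authors made the log2 values with GCRMA, per the submitters' processing notes, which background-corrects, normalizes and summarizes probes; the version, scan dates and detection calls are not given in the sources used here. The deposited log2 values, 0.083 to 16.46 over 31042 probe sets, were used as given. Probe sets were named by the platform annotation, updated by gene identifier through the RefSeq table (GRCr8): 20826 had 1 gene, 436 several and 9780 none, and 20758 were updated. Probe sets with log2 above 4 in at least 5 arrays were kept (12947), and each gene was represented by the kept probe set of highest mean. One fit of all 20 arrays by diet was made in R 4.3.3 with limma 3.58.1 (lmFit, eBayes with an intensity trend), two-sided, with Benjamini-Hochberg adjustment over kept probe sets, for 6 comparisons; every p is adjusted unless said otherwise. Members and lists were chosen with earlier results of these data known. Sample values are given for members called without overlap of groups, and up to 4 called genes by size are named per further list and comparison. Of further genes, Ppara and Acacb had no kept probe set. Alternatives were centring, quantile normalization, other filters, variance priors, array weights, fitting the compared groups alone, the replicate number as block, the mean of probe sets, a 2-fold rule and leaving out arrays. The fit was tested on simulated data.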

Additional observations from a re-analysis of the deposited data

Results flagged for a closer look

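In 9 of 124 groups of 5 livers (31 genes in 4 diets) 1 liver stood apart from the rest by Dixon's gap test at its 95% critical value of 0.71, where chance flags about 1 in 20, or 6.2 groups. Acadvl read 9.58 in BNF liver 1, against 9.82 to 9.92 in the other BNF livers. Hadh read 12.22 in control liver 1, against 11.86 to 11.95 in the others. Control liver 3 stood apart for Etfb (12.49 against 11.96 to 12.04), Etfdh (10.34 against 10.08 to 10.15) and Cat (13.82 against 14.10 to 14.19). Acot8 read 7.25 on the array labelled OLT 1, against 6.82 to 6.94 on the other OLT arrays. Pxmp4 read 5.04 in BNF liver 4, against 9.96 to 10.74, and 4.84 in OLT liver 5, against 10.14 to 10.71. Vnn1 read 6.68 in BNF liver 2, against 8.28 to 8.84.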

How the results depend on the processing

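No called result changed direction. Of the 31 genes' calls against control, 14 of 16 under D3T, 11 of 11 under OLT and 3 of 9 under BNF (Cpt2, Acadm and Hadha) were kept under every alternative run other than the 2-fold rule, as were 8 of 11 calls for D3T minus BNF and 5 of 9 for OLT minus BNF. Centring moved the median difference of kept probe sets from -0.047 to 0.02 under BNF, from -0.024 to 0.121 under D3T and from -0.041 to 0.126 under OLT. Shares of all genes called were counted only in the main fit, with the 2-fold rule and without the arrays D3T 5 and OLT 1. In the other settings a changed rate of calls over all genes cannot be told from a change in these genes. The BNF count of 9 called genes became 5 with arrays centred, 5 with no filter and 15 with array weights. A 2-fold rule left 1 gene under BNF, 8 under D3T, 6 under OLT, 4 for D3T minus BNF and 3 for OLT minus BNF; OLT minus BNF had 5 with no filter. OLT minus D3T had 2 without the arrays labelled D3T 5 and OLT 1. Leaving out single arrays gave 4 to 9 called genes under BNF, 15 to 16 under D3T, 11 to 12 under OLT, 0 to 1 for OLT minus D3T, 8 to 11 for D3T minus BNF and 5 to 9 for OLT minus BNF. The mitochondrial median under D3T was -0.46 centred and -0.77 with probe sets averaged, and under OLT -0.35 and -0.70. The peroxisomal median was 0.06 centred and -0.27 with Crat, Ech1 and Eci2 added under D3T (leaving out single arrays -0.23 to 0.11), and under OLT -0.06 centred, -0.11 with quantile normalization and -0.01 without both arrays (single arrays -0.30 to -0.01). The cause was not tested. No label says that the replicate numbers pair the rats. Over 30 same-numbered pairs in different diets the correlation of deviations was -0.272 to 0.297, and 11 pairs exceeded 0.1. Its median was 0.057, against -0.031 for different numbers, and 2 of 20 arrays correlated best with their own number. These values do not settle whether the numbers carry a pairing. With the number as a block 7, 15 and 11 genes were called under BNF, D3T and OLT, 0 for OLT minus D3T, 11 for D3T minus BNF and 8 for OLT minus BNF.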
